A study of Sus scrofa with 15 samples.

Results

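The transcripts of 9 chemokine receptors of lymphocytes (*CXCR6*, *CX3CR1*, *CXCR3*, *CXCR4*, *CCR2*, *CCR6*, *CCR7*, *CCR9* and *XCR1*) were followed across 3 porcine NK cell populations. They were taken by gene symbol from a table of read counts on 29886 genes. The populations were CD8α-high NK cells of the blood, CD8α-high NK cells of the liver and CD8α-dim NK cells of the liver, which the submitters call liver-resident (lrNK cells). All 3 were sorted as CD3- CD172a- CD8α+ cells from the same 5 pigs, 6 months old, which gave 15 libraries, and the liver cells came from fluid flushed through the portal vein. Breed, sex and any treatment were not given in the sources used here. The libraries held 2003499 to 5680221 counts on genes, and the lrNK libraries were on average the shallowest (median 2407859 against 3749615 in blood and 3877028 in liver CD8α-high cells). Libraries were read from the 3′ end of transcripts, so counts do not grow with transcript length. How fully the annotated 3′ ends took up the reads may differ between genes and was not tested, so levels and shares of different receptors are set side by side as counted reads. A level is given as CPM, edgeR's count per library size with TMM factors, and each population is summarised as mean ± SD over the 5 pigs.

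Chemokine receptors are cell surface proteins that couple to inhibitory G proteins and steer leukocytes along gradients of small secreted or membrane-bound ligands. The set that a lymphocyte carries bears on whether it stays in the blood, enters a tissue or is kept there. In the liver, *CXCR6* and its ligand *CXCL16*, displayed in the sinusoids, are known for holding NK cells and NKT cells in place, whereas *CX3CR1*, the receptor of fractalkine, is typical of circulating cytotoxic lymphocytes.

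The lrNK cells differed from both CD8α-high populations in 6 of the 9 receptors. *CXCR6*, *CXCR3*, *CCR6*, *CCR9* and *XCR1* were higher and *CX3CR1* was lower, whereas *CXCR4*, *CCR2* and *CCR7* had too few counts to pass the filter on low values. Between the CD8α-high populations *CXCR6* alone passed the test, higher in the liver, and that call was lost in several other fits. Among all 10939 genes tested, 8.62% rose and 9.60% fell from blood to lrNK cells, and 6.96% rose and 7.68% fell from liver CD8α-high to lrNK cells. Between liver and blood CD8α-high cells, 0.0457% of the genes tested were higher in the liver and 0.0183% lower. A gene was called where the p of edgeR's quasi-likelihood test, adjusted by Benjamini-Hochberg over all genes tested, was under 0.05. *CCR6*, *CCR9* and *XCR1* passed the filter only through the lrNK libraries, *CX3CR1* only through the CD8α-high libraries and *CXCR6* only through the liver libraries, where each is high, so a difference was built into their selection and the number of calls is a description. In a fit without the filter the same 6 receptors were called against both CD8α-high populations. Because the cells were sequenced in bulk, fewer expressing cells and less RNA per cell cannot be told apart.

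By the rule that a receptor with 3 counts or fewer in every library of a population was not detected, *CCR2* and *XCR1* were not detected in blood, *CCR6* and *XCR1* were not detected in liver CD8α-high cells and *CXCR4* was not detected in lrNK cells. A limit of 10 counts would add *CXCR4* and *CCR7* in blood, *CXCR4* and *CCR2* in liver CD8α-high cells and *CCR2* in lrNK cells. The plot of receptor levels by library shows all 9 on the same scale.

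**Figure D1:**
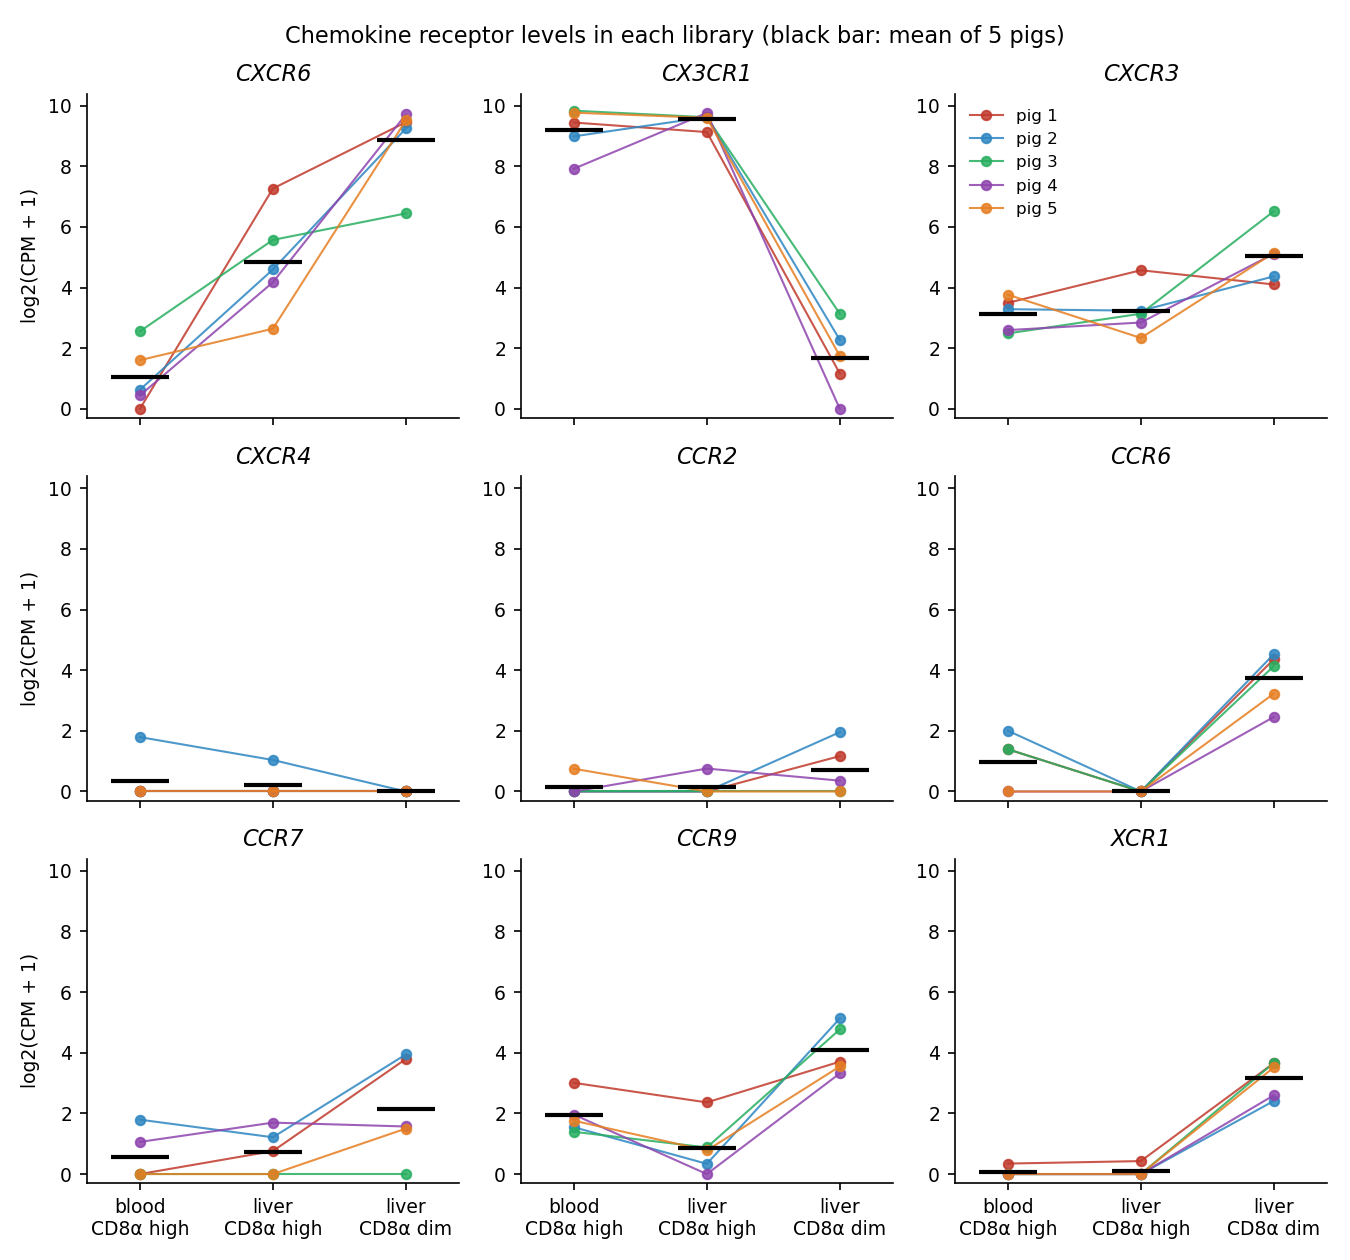
Level of each of the 9 receptors, as log2(CPM + 1), in the 3 populations, where each point is a library, lines join the libraries of a pig and the black bar is the mean of 5 pigs. In all 5 pigs *CXCR6* is highest and *CX3CR1* lowest in the lrNK cells, *CCR6*, *CCR9* and *XCR1* are highest there at lower levels, and *CXCR4* and *CCR2* stay near 0.

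*CXCR6*, the receptor of *CXCL16*, was on average the most abundant chemokine receptor transcript of the lrNK cells. In blood it was counted 0, 2, 18, 1 and 6 times in pigs 1 to 5. In liver CD8α-high cells the counts were 443, 88, 167, 99 and 22. In lrNK cells they were 1686, 1264, 177, 2979 and 2790. Every lrNK and every liver CD8α-high library was above every blood library, while the liver populations overlapped, because the lrNK library of pig 3 (86.2 CPM) lay below the liver CD8α-high library of pig 1 (153 CPM). Without those libraries the lrNK levels ran from 607 to 837 CPM and the liver CD8α-high levels from 5.25 to 46.6 CPM.

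The order of the mean *CXCR6* levels was blood (1.57 ± 2.01 CPM, SD, n = 5), liver CD8α-high (49.0 ± 60.03 CPM) and lrNK cells (592 ± 294 CPM). The log2 fold change of lrNK cells against blood was 8.50 ± 0.94 (SE, edgeR adjusted p = 1.07e-06). Against liver CD8α-high cells it was 3.62 ± 0.69 (SE, adjusted p = 7.85e-04), with the lrNK library higher in 5 of 5 pigs. Without pig 3 the value against blood was 9.94, and without pig 1 that against liver CD8α-high cells was 4.64. Both differences stayed past the threshold in every fit tried.

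Between liver and blood CD8α-high cells the log2 fold change of *CXCR6* was 4.88 ± 0.90 (SE, edgeR adjusted p = 0.0360), and the liver library was the higher one in 5 of 5 pigs. The call was lost when the pig was a block (4.48, adjusted p = 0.112), with a robust estimate of dispersion (4.88, adjusted p = 0.413) and without pig 1, 2, 4 or 5 (adjusted p from 0.0717 to 0.337). Its value was 3.47 without pig 1, 4.83 without pig 2, 4.89 without pig 4, 5.28 without pig 5 and 6.05 without pig 3, where the call was kept (adjusted p = 0.0264). Leaving out the liver CD8α-high library of pig 1 alone, a choice made after the data were seen, gave 3.80 and an adjusted p of 0.0612. DESeq2 made the call without and with the block, and over all fits tried the adjusted p ran from 2.66e-06 to 0.413.

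The liver CD8α-high level of *CXCR6* was set against the lrNK level of the same pig, and the share varied widely. It was 21.8% in pig 1, 3.82% in pig 2, 54.0% in pig 3, 2.04% in pig 4 and 0.721% in pig 5. The lrNK level was low in pig 3, and the liver CD8α-high level was high in pig 1. The same share was taken for *EOMES*, *NCR1*, *PLXNC1*, *COTL1*, *LYST*, *CD96* and *GZMA*, which the study names as high in lrNK cells. *EOMES*, a T-box transcription factor of lrNK cells, stood at 2.20% to 26.8% (median 6.33%). *NCR1*, which encodes the activating receptor NKp46, stood at 3.18% to 46.9% (median 16.4%). The median of *CXCR6*, 3.82%, was below the medians of all 7 genes, and its range overlapped theirs. This order did not hold once the blood level was subtracted from both liver levels, where the *CXCR6* median, 3.74%, was above those of *EOMES* (2.43%), *PLXNC1* (2.30%), *LYST* (1.42%) and *NCR1* (-4.54%).

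The liver CD8α-high library of pig 1 had the highest level of 7 of the 7 reference genes in that population, and its blood library had the highest level of 5 of the 7 among the blood libraries. The same library was highest for *CXCR6*, *CXCR3*, *CCR9* and *XCR1*. The lrNK library of pig 3 also stood apart for other genes. Of the 7 reference genes it was the highest lrNK library for 2 and the lowest for 1. Among NK cell markers it was the lowest for *IL2RB* (381 CPM, population median 2767), *KLRB1* (193 CPM, median 1544) and *KLRK1* (75.5 CPM, median 729). For *PRF1* it was the highest (574 CPM, median 278). In blood the *CXCR6* level was 0% to 5.67% of the lrNK level (median 0.0904%), while the median blood share of the reference genes ran from 3.27% (*COTL1*) to 23.3% (*CD96*). Whether the liver CD8α-high gate held some lrNK cells was not tested.

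**Figure D2:**
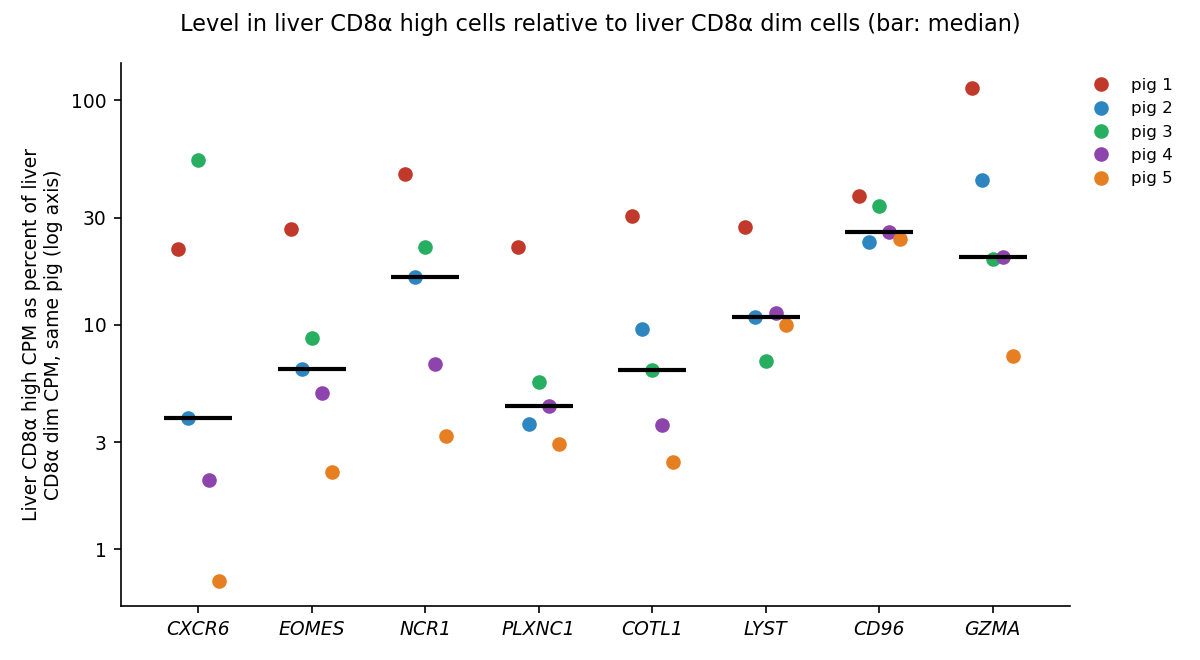
Level in liver CD8α-high cells as a percent of the level in lrNK cells of the same pig, on a log axis, for *CXCR6* and 7 genes that the study names as high in lrNK cells, where each point is a pig and the bar is the median. Pig 1 is the highest point for all genes but *CXCR6*, where pig 3 is highest at 54.0%, and pig 5 is the lowest point for 6 of the 8 genes.

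*CX3CR1*, the receptor of fractalkine, ran the other way. It was counted 2564, 1848, 3357, 667 and 2553 times in the blood libraries of pigs 1 to 5. The counts in liver CD8α-high cells were 1618, 2988, 2815, 5019 and 3240. In lrNK cells they were 3, 8, 16, 0 and 9. The lrNK libraries were thus apart from all others, with a highest level of 7.79 CPM against a lowest level of 241 CPM in blood.

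The mean *CX3CR1* level was 645 ± 277 CPM (SD, n = 5) in blood against 754 ± 115 CPM in liver CD8α-high cells, and these neighbours did not differ beyond their spread (log2 fold change 0.23, standard error 0.34, adjusted p = 0.9996). Among the lrNK libraries it averaged 3.05 ± 3.01 CPM. The log2 fold change against blood was -7.88 ± 0.51 (SE, edgeR adjusted p = 9.08e-10) and that against liver CD8α-high cells was -8.10 ± 0.51 (SE, adjusted p = 6.48e-10). Without the lrNK library of pig 3 these were -8.51 and -8.75. Of the T cell list, *CD3G* was also lower in these cells in both comparisons, *CD3E* (-2.21 against blood) and *CD3D* (1.15) were not called, and *CD5* and *CD28* were at 0, in cells sorted as CD3-. With the pig as a block, *CD3E* was called lower against liver CD8α-high cells (-2.77, edgeR adjusted p = 0.0418). The sums over the list, mostly *CD3G*, were 110 to 593 CPM against 637 to 1203 CPM in blood and 714 to 1076 CPM in liver CD8α-high cells, and its part in the *CX3CR1* difference was not tested.

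*CX3CR1* and *CXCR6* made up most of the counts on the 22 chemokine receptor genes analysed here. Of these counts, *CX3CR1* held 71.8% to 88.3% in blood (median 85.6%) and 66.5% to 90.2% in liver CD8α-high cells. In lrNK cells it held 0% to 2.56%, and *CXCR6* held 28.3% to 86.0% (median 83.4%). The low end, 28.3%, was the library of pig 3, in which *CXCR3* held 29.7%. The summed level of the 22 receptors was 758 ± 286 CPM (SD, n = 5) in blood, 907 ± 46.3 CPM in liver CD8α-high cells and 758 ± 261 CPM in lrNK cells, with overlapping ranges.

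**Figure D3:**
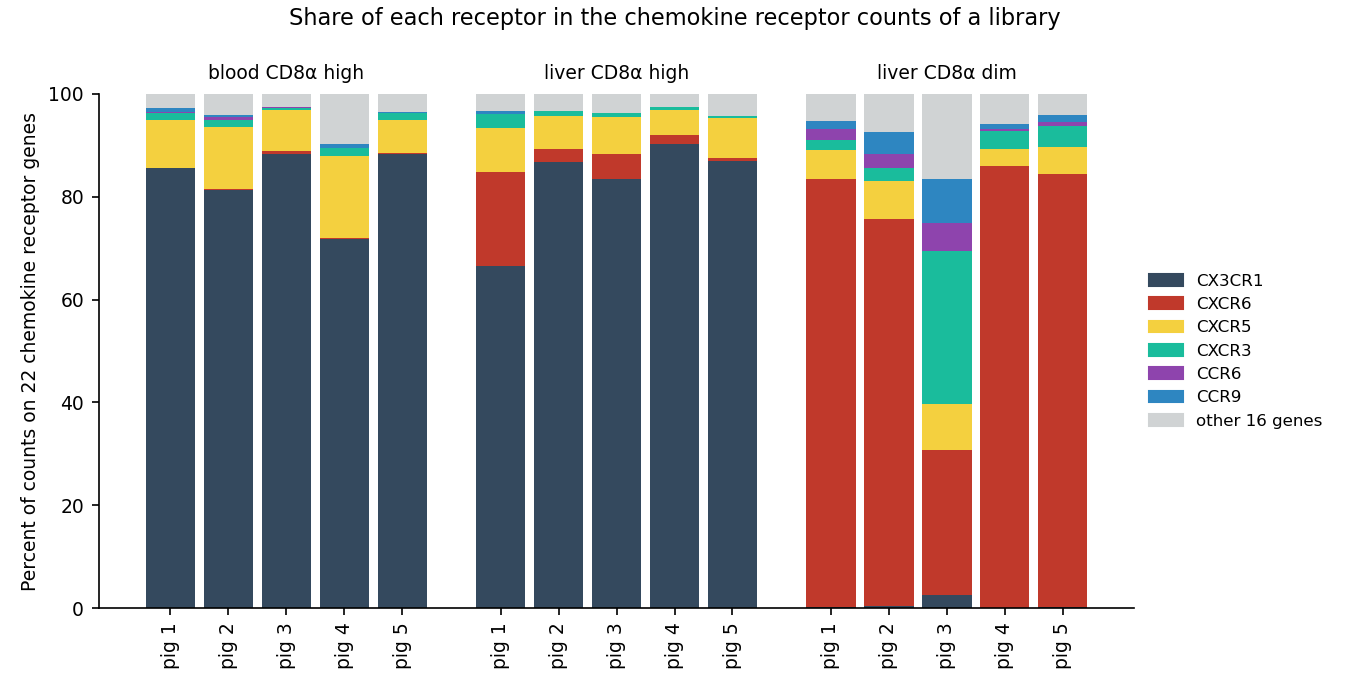
Percent of the counts on the 22 chemokine receptor genes analysed here that fell on each receptor, with a bar for each library and the remaining 16 genes in grey. *CX3CR1* fills most of each bar in the CD8α-high populations and *CXCR6* in the lrNK cells of pigs 1, 2, 4 and 5, while in the lrNK cells of pig 3 *CXCR6* and *CXCR3* hold nearly equal shares of 28.3% and 29.7%.

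Of the receptors of inflammatory chemokines, *CXCR3* was counted in every library. It binds the interferon-induced ligands CXCL9, CXCL10 and CXCL11. Its blood levels in pigs 1 to 5 were 10.3, 8.77, 4.61, 5.06 and 12.6 CPM. The liver CD8α-high levels were 22.8, 8.44, 7.81, 6.20 and 4.06 CPM, and the lrNK levels were 16.2, 19.7, 90.6, 33.7 and 34.5 CPM. All lrNK libraries were above all blood libraries, and in pig 1 the liver CD8α-high library was above the lrNK library.

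The *CXCR3* means were 8.27 ± 3.43 CPM (SD, n = 5) in blood, 9.86 ± 7.42 CPM in liver CD8α-high cells and 38.9 ± 30.02 CPM among the lrNK libraries. The lrNK cells were higher than blood cells by a log2 fold change of 2.23 ± 0.51 (SE, edgeR adjusted p = 0.00331), or 1.502 without pig 3 (adjusted p = 0.0423). They were higher than liver CD8α-high cells by 1.99 ± 0.50 (SE, adjusted p = 0.00838), in 4 of 5 pigs, and this difference was 2.74 without pig 1 and 1.35 without pig 3 (adjusted p = 0.0820, with a lowest value of 8.13e-04 over the fits tried). Blood and liver CD8α-high cells did not differ beyond their spread (0.23, standard error 0.50).

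*CCR2*, the receptor of CCL2 that is best known from inflammatory monocytes, was barely counted. It had 2 counts over the blood libraries, 4 over the liver CD8α-high libraries and 10 over the lrNK libraries, of which 6 were in pig 2 and 3 in pig 1. It was below the filter. The pooled lrNK level was 6.001-fold the blood level, with an exact 95% counting interval from 1.28 to 56.3 that leaves out the spread between pigs. A list of monocyte and macrophage markers summed to 0 to 6.24 CPM in blood, 0 to 2.93 CPM in liver CD8α-high cells and 0 to 25.6 CPM in lrNK cells. Its only tested gene, *LYZ*, was higher in lrNK than in liver CD8α-high cells (4.57, edgeR adjusted p = 0.0272, or 0.0512 with the pig as a block). *LYZ* was not called against blood (1.88). The part of this list in the *CCR2* values was not tested.

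The receptors known from homing to gut and mucosal sites, *CCR6* and *CCR9*, were both higher in lrNK cells. *CCR6*, the receptor of CCL20, had 6, 11, 6, 0 and 0 counts in the blood libraries of pigs 1 to 5 and 0 counts in all 5 liver CD8α-high libraries. The lrNK libraries had 47, 46, 34, 16 and 32 counts, all above the highest blood library. Blood cells had on average 1.25 ± 1.28 CPM (SD, n = 5) and lrNK cells 14.2 ± 7.49 CPM.

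The log2 fold change of *CCR6* in lrNK cells against blood was 3.42 ± 0.92 (SE, edgeR adjusted p = 0.0144), and without pig 1 it was 3.38 (adjusted p = 0.0618, with a lowest value of 4.35e-05 over the fits tried). Against liver CD8α-high cells the pooled level was at least 84.8-fold higher, set against 3 counts over that population (adjusted p = 2.28e-04). The liver CD8α-high level was at least 9.29-fold lower than the blood level by the same floor, which did not pass the test (adjusted p = 0.466). That bound covers counting error only.

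*CCR6* is also a receptor of B cells, and B cell markers were counted in the lrNK libraries. *MS4A1*, *CD79B* and *PAX5* were each higher in lrNK cells than in either CD8α-high population, and *CD79A* was at 0 throughout. The summed level of these 4 B cell genes ran from 9.55 to 99.9 CPM in blood, from 0 to 38.7 CPM in liver CD8α-high cells and from 188 to 648 CPM in lrNK cells. Within the lrNK libraries of pigs 1 to 5 the sums were 378, 565, 188, 648 and 235 CPM, beside *CCR6* levels of 19.5, 22.1, 16.6, 4.49 and 8.36 CPM. The part of these transcripts in the *CCR6* difference was not tested.

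*CCR9*, the receptor of CCL25 and a receptor of gut-homing lymphocytes, was counted 26, 7, 6, 8 and 7 times in blood. The liver CD8α-high libraries had 12, 1, 3, 0 and 3 counts and the lrNK libraries 29, 71, 54, 32 and 41. The lowest lrNK level, 8.99 CPM in pig 4, was above the highest level of the other populations, 7.05 CPM in the blood of pig 1.

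The order of the *CCR9* means was liver CD8α-high cells (1.19 ± 1.68 CPM, SD, n = 5), blood (3.17 ± 2.22 CPM) and lrNK cells (18.4 ± 11.14 CPM). The log2 fold change of lrNK cells against blood was 2.51 ± 0.76 (SE, edgeR adjusted p = 0.0240) and that against liver CD8α-high cells was 4.01 ± 0.83 (SE, adjusted p = 0.00171). Without pig 1 these were 3.17 and 5.42, and without pig 2 the value against liver CD8α-high cells was 3.40. The call against blood was lost without pig 2 (adjusted p = 0.154), pig 3 (adjusted p = 0.0930) or pig 5 (adjusted p = 0.0667), and its lowest adjusted p over the fits tried was 0.00142. Liver CD8α-high cells had less *CCR9* than blood cells in 5 of 5 pigs, a log2 fold change of -1.50 (standard error 0.81) that did not pass the test (adjusted p = 0.9996). Without the liver CD8α-high library of pig 1 it was -2.79 (adjusted p = 0.454, in a range of 0.454 to 0.99999 over the fits tried).

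Some markers of plasma cells and plasmacytoid dendritic cells, which can also carry *CCR9*, were higher in the same libraries. The plasma cell list, with all 3 genes in the table, summed to 172 to 206 CPM in blood, 197 to 272 CPM in liver CD8α-high cells and 295 to 654 CPM in lrNK cells. In the CD8α-high populations these sums were mostly *PRDM1*. It averaged 159 CPM in blood, 216 CPM in liver CD8α-high cells and 228 CPM in lrNK cells, beside 28.2, 10.9 and 259 CPM of *JCHAIN*. *JCHAIN*, the joining chain of secreted antibodies, was higher in lrNK cells than in blood by a log2 fold change of 3.20 and *PRDM1* by 0.52, with no call of *PRDM1* against liver CD8α-high cells (0.081, adjusted p = 0.838), while *TNFRSF17* was called against liver CD8α-high cells (5.89) and not against blood (2.59, adjusted p = 0.0830). The plasmacytoid dendritic cell list summed to 43.4 to 117 CPM in lrNK cells, 4.70 to 18.5 CPM in blood and 0 to 11.4 CPM in liver CD8α-high cells. The part of these transcripts in the *CCR9* and *CXCR3* differences was not tested.

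The receptors known from homing to lymph nodes and bone marrow were at the edge of detection. *CCR7*, the receptor of CCL19 and CCL21, had 0, 9, 0, 3 and 0 counts in blood, 2, 5, 0, 13 and 0 counts in liver CD8α-high cells and 31, 30, 0, 7 and 7 counts in lrNK cells. Only the lrNK libraries of pigs 1 and 2 were above all others, and that of pig 3 was at 0. *CCR7* was below the filter, and in an edgeR fit without the filter its log2 fold change in lrNK cells against blood was 3.04 ± 1.36 (SE, adjusted p = 0.145). The call was made in 1 of the fits tried, DESeq2 with the pig as a block. As with *CCR6*, the B cell list was higher in these lrNK libraries, and its part in the *CCR7* values was not tested.

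*CXCR4*, the receptor of CXCL12, was counted in pig 2 only, 9 times in blood and 4 times in liver CD8α-high cells. The other 4 blood libraries, the other 4 liver CD8α-high libraries and all 5 lrNK libraries had 0 counts, which allows a level of up to 0.215 CPM over the lrNK libraries by counting error alone. *CXCR4* is a receptor of most resting lymphocytes, and it was among the least counted receptors here. Whether the annotated 3′ end of *CXCR4* took up the reads of its transcript was not tested, so these zeros do not show that the gene was silent.

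*XCR1*, the receptor of *XCL1*, is best known from cross-presenting dendritic cells. It had 1 count over the blood libraries and 1 over the liver CD8α-high libraries, both in pig 1. The lrNK libraries had 28, 9, 24, 18 and 40 counts, a level of 8.63 ± 3.64 CPM (SD, n = 5). The pooled lrNK level was 143-fold the blood level (exact 95% counting interval 25.1 to 5688) and 173-fold the liver CD8α-high level (30.5 to 6892). The adjusted p was 2.31e-04 against blood and 2.28e-04 against liver CD8α-high cells (edgeR, Benjamini-Hochberg). Without pig 1 the fitted log2 fold change moved from 6.50 to 7.79 against blood and from 6.59 to 7.79 against liver CD8α-high cells (7.89 without its liver CD8α-high library alone), and the ratios to either population rest on a single count in pig 1, whose CD8α-high libraries held the only counts outside the lrNK cells.

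Markers of dendritic cells were few in all populations. Of that list, 5 of 6 genes had a row, *CLEC9A* and *CLEC10A* were at 0 in all 15 libraries and *FLT3* was at 0 in all lrNK libraries. *BATF3* averaged 0.825 CPM in blood, 0.718 CPM in liver CD8α-high cells and 1.13 CPM in lrNK cells. *CADM1*, which held most of the list's counts, averaged 15.1, 11.99 and 2.78 CPM and was not called. The summed level of the list was 4.34 to 40.1 CPM in blood, 0.691 to 27.2 CPM in liver CD8α-high cells and 0 to 12.2 CPM in lrNK cells, and its part in the *XCR1* values was not tested. Of the plasmacytoid dendritic cell list, *TCF4* and *SPIB* had a row and both were called higher in lrNK cells, and its part in the *XCR1* values was not tested either. *SPIB* passed the filter only through the lrNK libraries, where it is high, so a difference was built into its selection. The NK cell list was detected in full in every population, with summed levels of 4622 to 7823 CPM in blood, 5651 to 7110 CPM in liver CD8α-high cells and 2850 to 10759 CPM in lrNK cells. Of its 8 genes, 3 were higher and 2 lower in lrNK cells against either CD8α-high population. Over all genes tested, 8.62% were higher and 9.60% lower against blood, and 6.96% and 7.68% against liver CD8α-high cells. Against blood, *NCR1* (log2 fold change 2.47), *KLRB1* (2.34) and *NKG7* (0.53) were higher and *GNLY* (-6.03) was lower. *CD8A*, on whose product the cells were sorted, was also lower in lrNK cells, by a log2 fold change of -3.43 against blood.

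Among the 9 receptors, *CXCR6* (592 CPM) was followed in the lrNK cells by *CXCR3* (38.9), *CCR9* (18.4), *CCR6* (14.2), *XCR1* (8.63), *CCR7* (6.21), *CX3CR1* (3.05) and *CCR2* (0.881 CPM). Of the other receptors analysed, *CXCR5* (42.4 CPM) lay above *CXCR3* and *CCRL2* (18.9 CPM) above *CCR9*. From *CXCR3* down to *CCR2*, the library ranges of each pair of neighbours in this order overlapped. The range of *CXCR6* met that of *CXCR3* only through pig 3, where *CXCR3* was at 90.6 CPM and *CXCR6* at 86.2 CPM.

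*CXCR6*, *CCR9*, *XCR1* and *CCR2* lie in a cluster of chemokine receptor genes on chromosome 13 of Sscrofa11.1. From *CCR9* to *CCRL2* it spans 376.9 kb (chr13:29033609-29410508), and 7 of its receptors were analysed here. *CCR9* lies at chr13:29033609-29051227, *CXCR6* at chr13:29095900-29100666, *XCR1* at chr13:29150376-29233802 and *CCR2* at chr13:29368735-29374564. The other members lie apart from it, with *CX3CR1* at chr13:23944386-23957567, *CCR6* on chromosome 1 (2016600 to 2034172), *CCR7* on chromosome 12 (21857286 to 21869211), *CXCR4* on chromosome 15 (15663652 to 15666706) and *CXCR3* on chromosome X (57592032 to 57595706).

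Neighbours in the cluster did not all move as *CXCR6* did. *CCR3* and the atypical receptor *CCRL2* were not called, with log2 fold changes in lrNK cells against blood of -1.88 (adjusted p = 0.287) and 1.09 (adjusted p = 0.0799). *CCR1* had at most 26 counts in a library and was below the filter.

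*CXCR6* lies wholly within *FYCO1*, an adaptor of vesicle transport, whose counts moved the other way. *FYCO1* was at 167 ± 28.1 CPM (SD, n = 5) in blood, 137 ± 28.4 CPM in liver CD8α-high cells and 56.3 ± 16.9 CPM among the lrNK libraries, with a log2 fold change against blood of -1.57 ± 0.21 (SE, edgeR adjusted p = 1.18e-05). *XCR1* shares 6585 bases with *CCR1*, *CCR9* lies within the long noncoding gene *LOC110256224* (at most 16 counts in a library) and *CX3CR1* shares 3139 bases with *LOC110256576* (at most 36 counts). The strand setting of the counting was not given in the sources used here, so reads in shared stretches could have been assigned to either gene.

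**Figure D4:**
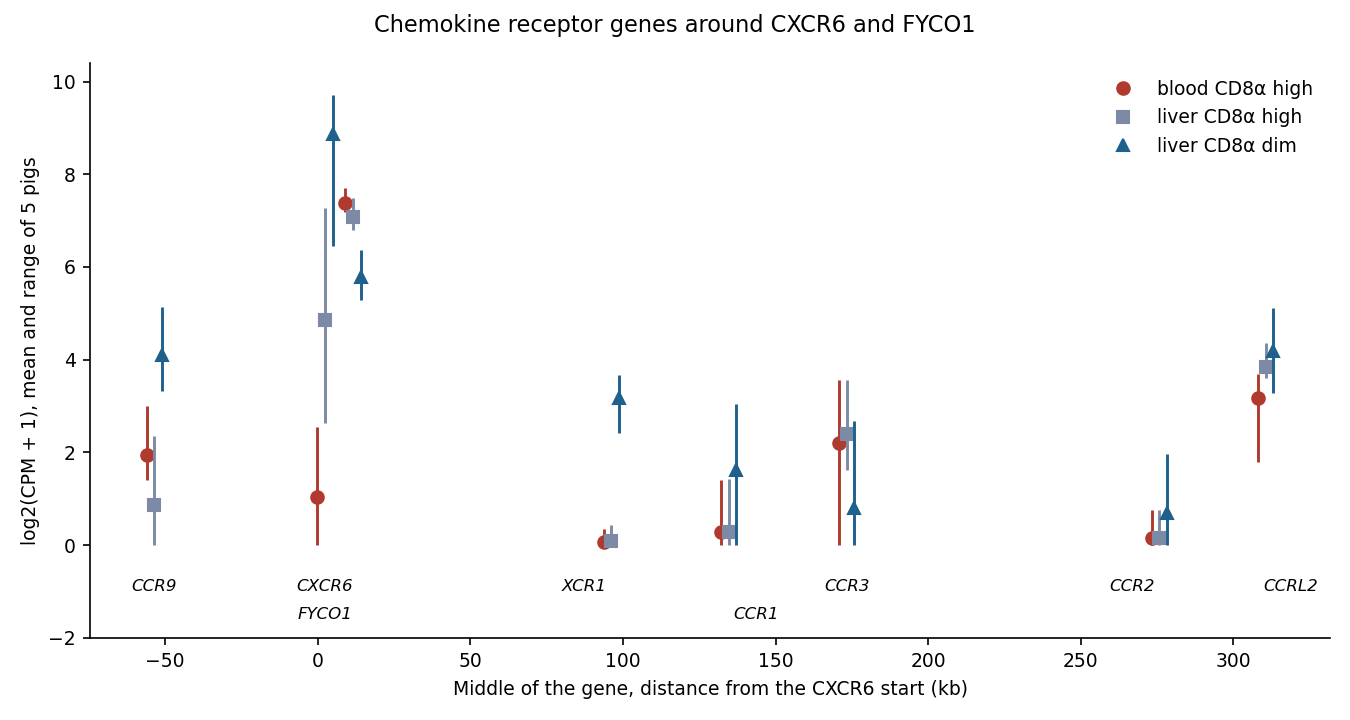
Levels of 7 receptor genes of the cluster and of *FYCO1*, as log2(CPM + 1), against the distance of the middle of each gene from the *CXCR6* start in kb, with symbols for the mean and bars for the range of 5 pigs, and populations set slightly apart along the axis. *CCR9*, *CXCR6* and *XCR1* are highest in lrNK cells, *FYCO1* is lowest there, and *CCRL2* overlaps between populations.

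The other chemokine receptors analysed gave a single call. Of 14 listed, 13 had a row, 5 passed the filter and 4 had 3 counts or fewer in every library, so the call is 1 of 5 tested genes beside the 9.60% of all genes that were lower against blood. *CXCR5*, the receptor of CXCL13, was lower in lrNK cells than in blood in 5 of 5 pigs, by a log2 fold change of -0.73 ± 0.22 (SE, edgeR adjusted p = 0.0240). Its means were 70.3 ± 11.4 CPM (SD, n = 5) in blood, 62.4 ± 10.6 CPM in liver CD8α-high cells and 42.4 ± 13.1 CPM in lrNK cells.

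Ligands were mostly at 0 in these cells. Of 34 listed, 31 had a row, 21 of those had 0 counts in all 15 libraries and 3 were tested. Of these 3, 2 were higher in lrNK cells than in blood, beside 8.62% of all genes tested. *XCL1*, the ligand of *XCR1*, was higher in lrNK cells than in blood by a log2 fold change of 1.44 ± 0.39 (SE, edgeR adjusted p = 0.0125), in 4 of 5 pigs. Its means were 20.1 ± 11.98 CPM (SD, n = 5) in blood, 45.2 ± 17.9 CPM in liver CD8α-high cells and 54.1 ± 20.3 CPM in lrNK cells. *CCL4* was higher in lrNK cells than in blood by 2.90 ± 0.76 (SE, adjusted p = 0.00922), in 4 of 5 pigs, with means of 13.7 ± 12.2 CPM (SD, n = 5) against 1.82 ± 1.71 CPM. It was at 19.7 ± 10.8 CPM in liver CD8α-high cells, above every blood library but with no call (3.40, adjusted p = 0.196). *CCL4* passed the filter only through the liver libraries, where it is high, so a difference from blood was built into its selection. *CCL5* was abundant and not called, at 1828 ± 175 CPM in blood and 1939 ± 612 CPM among the lrNK libraries. *CXCL16* and *CX3CL1*, the ligands of *CXCR6* and *CX3CR1*, had at most 16 and 2 counts in a library and 0 counts in all lrNK libraries.

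Of 32 genes that act downstream of chemokine receptors, all were tested. Against blood, 4 were higher and 12 lower in lrNK cells, and against liver CD8α-high cells 3 were higher and 11 lower, with 0 called between the CD8α-high populations. Over all genes tested, 8.62% were higher and 9.60% lower against blood, and 6.96% and 7.68% against liver CD8α-high cells. *ARRB1* and *TIAM1*, with at most 4 and 11 counts in an lrNK library, passed the filter through the CD8α-high libraries, where they are high. The median log2 fold change of the list was -0.19 against blood, beside 0.0060 over all genes tested. The arrestins, which uncouple receptors and carry them into the cell, were both lower in lrNK cells. The level of *ARRB1* was 20.5 ± 10.05 CPM (SD, n = 5) in blood and 0.663 ± 0.644 CPM among the lrNK libraries (log2 fold change -4.90) and that of *ARRB2* was 121 ± 22.6 against 21.4 ± 7.44 CPM (-2.47).

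The receptor kinases, which mark active receptors for arrestin binding, were split. *GRK5* was lower in lrNK cells than in blood, at 17.9 ± 4.61 against 80.8 ± 12.3 CPM (SD, n = 5), a log2 fold change of -2.17. *GRK3* was higher, at 85.4 ± 36.3 against 8.07 ± 8.14 CPM, a log2 fold change of 3.37. *GRK2* (0.019) and *GRK6* (-0.085) were not called. *TIAM1*, an activator of Rac, was lower (-4.09), as were *RASGRP2*, an activator of Rap1 (-2.27), *RAP1B* (-1.53) and *RAPGEF1*, another activator of Rap1 (-1.48). *RAP1A*, the close relative of *RAP1B*, was higher (0.88), as was *LIMK1*, a kinase of the actin cytoskeleton (1.22). The Rac proteins *RAC1* (-0.21) and *RAC2* (-0.61), *CDC42* (-0.57), the Rac activators *DOCK2* (0.23) and *VAV1* (-0.21) and the integrin activators *TLN1* (0.30) and *FERMT3* (0.25) were not called. *RAC2* was lower in 5 of 5 pigs, with an adjusted p of 0.0817 that became 0.0419 with the pig as a block. The 10 called genes named here had adjusted p-values from 6.58e-08 to 0.0197 against blood (edgeR, Benjamini-Hochberg), and all of them were also called, in the same direction, against liver CD8α-high cells.

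**Figure D5:**
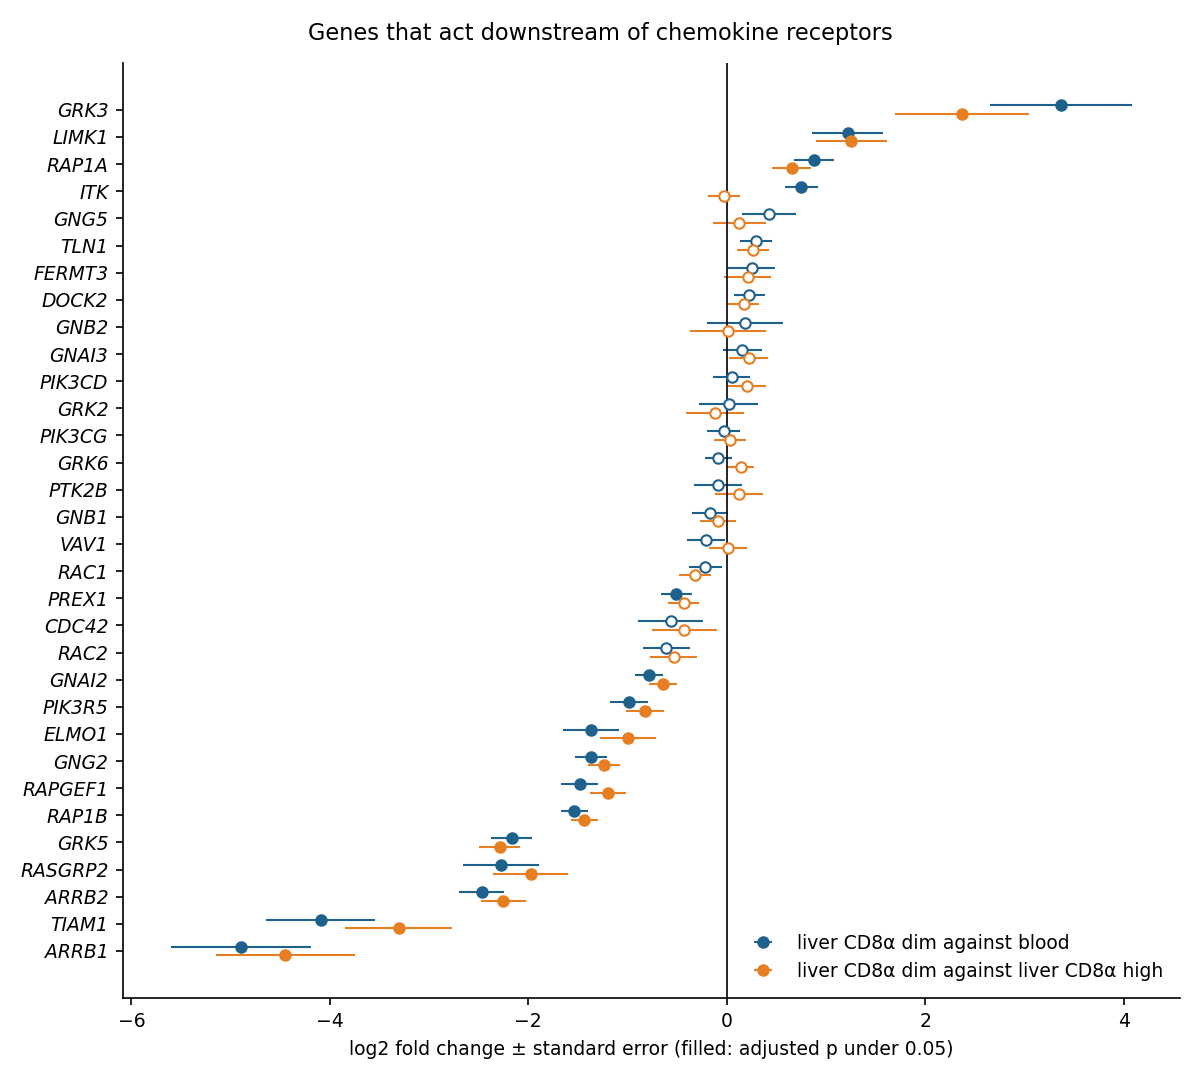
Log2 fold change ± standard error of 32 genes that act downstream of chemokine receptors, in lrNK cells against blood and against liver CD8α-high cells, with filled points where the adjusted p was under 0.05. *GRK3* has the highest and *ARRB1* the lowest value in both comparisons, which share the lrNK libraries, and 16 genes have open points against blood.

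For each tested receptor, the 3 genes with the most similar pattern were found by Pearson's r of log2 CPM over the 15 libraries, among genes with a mean of at least 10 CPM. The libraries share populations and depth, so these values are descriptions. *CXCR6* was most like *SLC7A8* (r = 0.930), *C1H15orf48* (0.928) and *EIF4G3* (0.928). *CX3CR1* was most like *ZNF831* (0.985), *DENND1B* (0.984) and *KLRG1* (0.983), an inhibitory receptor of mature NK cells with a mean of 386 CPM in blood against 5.85 CPM in the lrNK libraries. *CXCR3* was most like *GYG1* (0.913), *CMC1* (0.905) and *BMF* (0.903). *CCR6* was most like *B4GALT1* (0.936), *TTYH3* (0.936) and *SPIB* (0.902), a transcription factor of B cells and plasmacytoid dendritic cells. *CCR9* was most like *LOC100517129* (0.954), *PIK3C2B* (0.945) and *MAML2* (0.937), and *XCR1* was most like *SNX10* (0.963), *LYST* (0.959) and *ZBTB38* (0.957). With a prior count of 0.5 in the log2 CPM, 3 of the 3 genes remained for *CXCR3*, 2 for *CXCR6*, *CCR6* and *CCR9* and 1 for *CX3CR1* and *XCR1*, and *KLRG1* and *SPIB* were among those that did not.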

How the data were processed

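RNA of 3 sorted NK cell populations from 5 pigs was made into 3′ mRNA libraries. The authors trimmed the reads with QuasR, aligned them with HISAT2 to Sscrofa11.1 and deposited read counts for 29886 genes, whole numbers without normalization. The counting tool and its strand setting were not given in the sources used here. Each of the 15 columns was assigned to its population and pig by its name.

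Counts were tested with edgeR 4.0.16 in R 4.3.3, with TMM scaling, edgeR's default filter by population (10939 genes), the quasi-likelihood test fitted once over the 15 libraries, and p-values adjusted by Benjamini-Hochberg over these genes. The standard error is the log2 fold change divided by the square root of F. This test was used in place of the study's DESeq2, which was an alternative (version 1.42.0). Replicates of a population differed by more than counting noise (chi-square per degree of freedom 9.41 to 46.7 over 30 pairs). The labels pair libraries by pig. Same-pig libraries deviated together (mean correlation 0.107 over 15 pairs, against -0.0265 over 60 pairs of different pigs), so fits with the pig as a block were also made.

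The 9 receptors, the gene lists and the tests were chosen with earlier results of these data known. Named genes are the receptors, receptor genes of their chromosomal cluster and genes overlapping a receptor, up to 8 called genes of each list, the reference genes and the 3 genes most like each tested receptor. *RAP1A*, *LIMK1*, *CCL5* and the uncalled signalling genes were added after their values were seen. The scripts were tested on simulated data. Gene positions come from a RefSeq table of Sscrofa11.1 without strands. Promoter and protein sequences were not analysed here, and 2 listed genes are not reported here and were left out of list counts, sums and shares. Intervals and floors cover counting error only, and a level of 0 over a population was set at 3 counts. Figures were drawn with matplotlib 3.10.9.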

Additional observations from a re-analysis of the deposited data

Results flagged for a closer look

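Of 25 combinations of a receptor and a population that could be examined, 11 had a library further from the other 4 than Dixon's 95% limit. That limit flags about 1 in 20 groups of normally distributed values, and low counts with many zeros are not such values. The number flagged is therefore a description. Most of the flagged groups hold few counts, and 6 of the 11 rest on a single library above 0, which is always flagged. In liver CD8α-high cells, pig 1 was flagged for *CXCR6* (153 CPM, the others 5.25 to 46.6), *CXCR3* (22.8 CPM, the others 4.06 to 8.44), *CCR9* (4.14 CPM, the others 0 to 0.836) and *XCR1* (0.345 CPM, the others 0). In blood, pig 1 was flagged for *CCR9* (7.05 CPM, the others 1.63 to 2.89) and *XCR1* (0.271 CPM, the others 0). In lrNK cells, pig 3 was flagged for *CXCR3* (90.6 CPM, the others 16.2 to 34.5). Pig 2 was flagged for *CXCR4* in blood (2.47 CPM) and in liver CD8α-high cells (1.05 CPM). *CCR2* was flagged in the blood of pig 5 (0.682 CPM) and in the liver CD8α-high cells of pig 4 (0.689 CPM), with 2 and 4 counts.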

How the results depend on the processing

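All 6 tested receptors kept their direction in lrNK cells against either CD8α-high population under every alternative, and none lost its call under the other normalization, DESeq2, the filters or the robust dispersion. The block by pig changed no call of these receptors in these comparisons, and took the signalling genes called lower from 12 to 13 against blood and from 11 to 12 against liver CD8α-high cells. The calls lost on leaving out a pig are those given above. Between liver and blood CD8α-high cells the number of receptors called went from 1 to 0 with the replicate block and with the robust dispersion, and was 0 to 1 over the leave-out fits. The number of all genes called there, 7, became 24 with DESeq2, 18 without a filter, 4 with the robust dispersion, 175 with DESeq2 and the block, 16 with only the populations compared, and 0 (without pig 2) to 12 over the leave-out fits. Leave-out fits include 2 chosen after seeing the data, without the lrNK library of pig 3 or the liver CD8α-high library of pig 1. In lrNK against liver CD8α-high cells, 1051 (without pig 5) to 1764 genes were called over the leave-out fits. Some uncalled differences between the CD8α-high populations changed sign, on the log2 scale. *XCR1* went to 0.070 with the block and ran from -1.38 to 0.024 over the leave-out fits, *CXCR3* ran from -0.32 to 0.64 (-0.22 without pig 1) and *CX3CR1* from -0.038 to 0.37. The cause was not tested. With a limit of 10 counts, 4, 4 and 2 receptors were not detected in blood, liver CD8α-high and lrNK cells. Under the stricter filter *XCR1* was not tested, so 5 receptors remained. At this depth *CCR2*, *CCR7* and *XCR1* had few or 0 counts in most CD8α-high libraries.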
